A study of Mus musculus with 4 samples.

Results

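The 10 genes described here encode Notch receptors (Notch1, Notch2 and Notch3), their ligands (Dll1, Dll3, Dll4, Jag1 and Jag2) and transcription factors induced by the pathway (Hes1 and Hey1). They were chosen by symbol from the deposited gene annotation, and all 10 were found among the 54232 genes of the count table. RNA came from the mouse line RPP631, derived from small cell lung cancer (SCLC) and held for 48 h with the vehicle DMSO or with YKL at 100 nM. The series presents YKL as an inhibitor of the transcription and cell cycle kinase CDK7. Each group held 2 libraries of this single line, whose genotype the labels do not give. The labels do not say that replicates were separate cultures, so each p-value reflects the spread between these libraries alone, which may be technical.

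Notch receptors are transmembrane proteins that are cut when a DLL or JAG ligand on a neighbouring cell pulls on them. The freed intracellular part joins the DNA-binding protein RBPJ and switches on repressors of the HES and HEY families, which in turn silence proneural genes. Neuroendocrine SCLC cells are known for low Notch activity and for expression of DLL3, a divergent ligand that stays largely inside the cell and can inhibit Notch there.

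The libraries held 34189709 and 31082753 assigned counts in DMSO and 29817387 and 32956564 in YKL. Levels are given as CPM, counts scaled to a common library size by TMM. The first principal component of log2 CPM separated YKL from DMSO, and the second, with 30.7% of the variance, separated DMSO replicate 1 from DMSO replicate 2. Mitochondrial genes took 1.01% and 1.14% of the counts in DMSO and 1.25% and 1.78% in YKL, so both YKL libraries lay above both DMSO libraries. The part of that share in the results below was not tested. Markers matched a neuroendocrine culture. All 9 neuroendocrine markers examined had a group mean of at least 5 CPM, with summed levels of 3282 and 3197 CPM in DMSO and 3529 and 3251 CPM in YKL. The summed level of 8 endothelial markers was 56.3 and 75.4 CPM in DMSO and 62.3 and 44.3 CPM in YKL, most of it Vwf, with Cldn5 at 0 counts in every library. Fibroblast and pericyte markers summed to 12.9 and 27.3 CPM in DMSO and 45.4 and 19.0 CPM in YKL, most of it Pdgfra. Immune markers summed to 4.99 and 8.28 CPM in DMSO and 10.8 and 7.36 CPM in YKL (Cd3e at 0). Markers of other lung epithelium summed to 24.6 and 20.9 CPM in DMSO and 36.3 and 35.2 CPM in YKL (Scgb3a2 at 0). Most of that last sum was Hopx and Foxj1.

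In these cells Hes1 rose in YKL, whereas no receptor and no ligand was called. Ligand transcripts were led by Jag2, and transcripts of the 3 receptors were scarce in every library. Of the 10 genes, 9 had enough counts to be tested, and 1, Hes1, was called higher at a Benjamini-Hochberg adjusted p under 0.05 by edgeR's quasi-likelihood test. Over all 16749 tested genes, 2.1% were called higher and 3.54% in either direction. At an unadjusted p under 0.05, Hes1 was again the only one of the 9, against 21.2% of all tested genes. Their median log2 fold change, YKL over DMSO, was 0.34, against -0.00014 over all tested genes. In 3 of the 9, namely Hes1, Hey1 and Dll3, both YKL libraries lay above both DMSO libraries. Groups lay apart in either direction in 52.3% of all tested genes and in the upward direction in 27%. Bulk RNA cannot tell a change in the number of cells that express a gene from a change in RNA per cell.

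**Figure D1:**
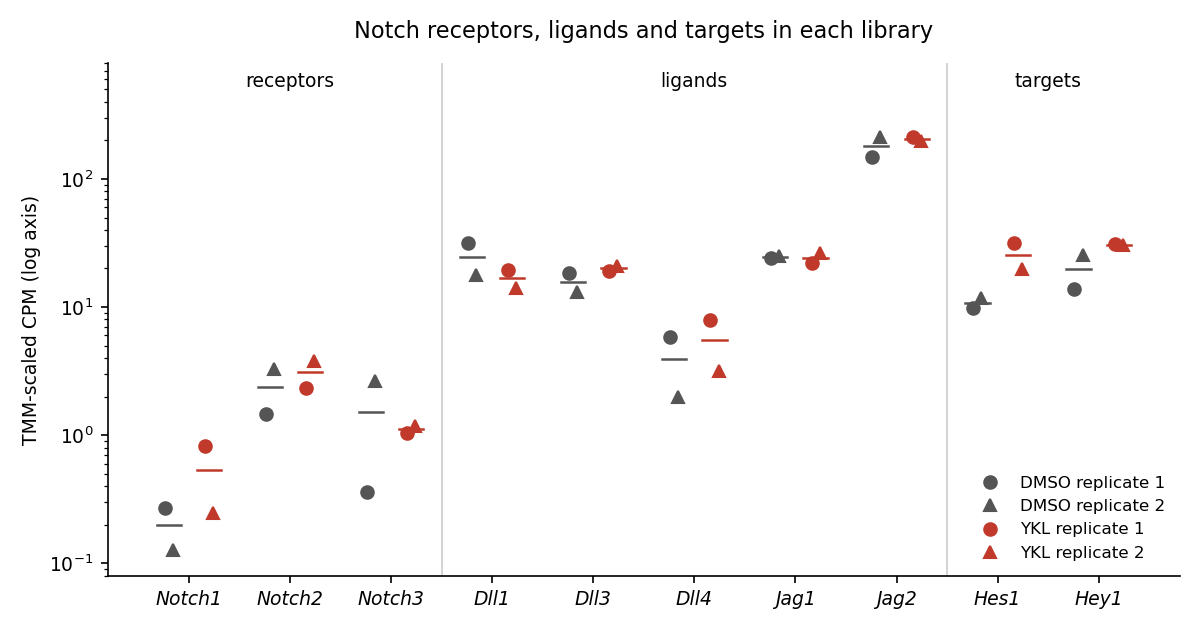
TMM-scaled CPM (log axis) of the 10 genes in each library, with DMSO in grey, YKL in red, replicate 1 as circles and replicate 2 as triangles, and lines at the mean of 2 libraries. Both YKL values lie above both DMSO values for Hes1 (19.9 and 31.4 against 9.77 and 11.7 CPM), Hey1 and Dll3, and the receptors lie under 4 CPM throughout.

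The receptors were near the limit of detection. Notch1 (ENSMUSG00000026923, chromosome 2, 26457903 to 26516663, mm10), the receptor best known from T cell leukaemia, was read 9 and 4 times in the DMSO libraries (replicate 1, then replicate 2, as throughout) and 25 and 8 times in the YKL libraries. It did not pass the filter on low counts, and the groups overlapped at 0.269 and 0.127 CPM in DMSO and 0.816 and 0.248 CPM in YKL. Notch2 (ENSMUSG00000027878, chromosome 3, 98013527 to 98150361) had 1.46 and 3.30 CPM in DMSO and 2.35 and 3.82 CPM in YKL. The groups overlapped, and the log2 fold change of 0.37 ± 0.52 (standard error) was not called (adjusted p = 0.743). Notch3 (ENSMUSG00000038146, chromosome 17, 32120820 to 32166880) had 12 and 84 counts in the DMSO libraries, or 0.359 and 2.67 CPM, and 1.04 and 1.18 CPM in YKL. Both YKL values of Notch3 lay between the DMSO values, so its log2 fold change of -0.44 ± 0.83 turned with the library left out. It was 1.59 without DMSO replicate 2 and -1.26 without DMSO replicate 1, called in neither fit (adjusted p = 0.17 and 0.175).

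Exons of Notch1 share 1068 bases with 0610009E02Rik and 414 bases with Gm13568 on the other strand, those of Notch3 share 488 bases with Gm17276 on the other strand, and those of Dll1 and Dll4 share 867 and 214 bases with A930024N18Rik and Gm14207, also on the other strand. Exons of Notch2 share 541 bases with Gm42820 on the same strand, which no strand setting can resolve. The strand setting of the counting is not given in the sources used here, so reads in those stretches cannot be assigned to 1 of the 2 genes. Each of these neighbours had a mean under 1.5 CPM in both groups. Jag1, Jag2, Dll3, Hes1 and Hey1 share no exonic base with another gene of the table.

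Among the ligands Jag2 dominated and no member was called. Jag2 (ENSMUSG00000002799, chromosome 12, 112907819 to 112929776), a Jagged ligand, had 148 and 213 CPM in DMSO and 211 and 198 CPM in YKL. Its groups overlapped, and its log2 fold change was 0.18 ± 0.21 (adjusted p = 0.687). Jag1 (ENSMUSG00000027276, chromosome 2, 137081456 to 137116644), the other Jagged ligand, was the most even of the set, at 24.0 and 24.8 CPM in DMSO and 21.9 and 26.4 CPM in YKL. Its log2 fold change was -0.015 ± 0.23 (adjusted p = 0.982), on the other side of 0 with upper quartile scaling (0.0058).

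The Delta-like ligands differed in the sign of their fold changes, none of which passed the test. Dll1 (ENSMUSG00000014773, chromosome 17, 15367354 to 15376872), an activating ligand of the developing nervous system, had 31.6 and 17.8 CPM in DMSO and 19.5 and 14.1 CPM in YKL. DMSO replicate 2 lay between the YKL libraries, and the log2 fold change was -0.55 ± 0.32 (adjusted p = 0.360). The value rested on DMSO replicate 1: without that library it was -0.083 (adjusted p = 0.908), and without DMSO replicate 2 it was -0.94 and called (adjusted p = 0.0118). Dll3 (ENSMUSG00000003436, chromosome 7, 28293553 to 28302238), the divergent ligand, had 18.6 and 13.0 CPM in DMSO and 19.3 and 20.8 CPM in YKL. Its groups lay apart by a narrow margin, with a log2 fold change of 0.34 ± 0.27 (adjusted p = 0.515). Dll4 (ENSMUSG00000027314, chromosome 2, 119325784 to 119335962), known as a ligand of vascular endothelium, had 5.89 and 2 CPM in DMSO and 7.93 and 3.17 CPM in YKL. The spread within each group was wider than the difference between the means, and the log2 fold change was 0.49 ± 0.62 (adjusted p = 0.717).

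Levels of different genes were compared per length, as CPM divided by exon length in kilobases (RPKM). In DMSO the order of mean RPKM was Jag2 (26.0), Hey1 (6.04), Dll1 (5.85), Dll3 (5.54), Hes1 (5.27), Jag1 (4.19), Dll4 (1.02), Notch2 (0.221), Notch3 (0.188) and Notch1 (0.0139). The library values of Hey1, Dll1, Dll3 and Hes1 overlapped between neighbours in that order, as did those of Notch2 and Notch3. In YKL the order was Jag2 (29.4), Hes1 (12.6), Hey1 (9.38), Dll3 (7.03), Jag1 (4.15), Dll1 (3.99), Dll4 (1.44), Notch2 (0.286), Notch3 (0.138) and Notch1 (0.0374), and only Jag1 and Dll1 overlapped between neighbours. By mean RPKM Hes1 thus stood below Hey1, Dll1 and Dll3 in DMSO, but it was below all 3 in neither DMSO library. It lay above Hey1 in DMSO replicate 1 and above Dll1 and Dll3 in DMSO replicate 2. In both YKL libraries Hes1 lay above all 3. The overlap in DMSO means that a change of rank between the groups is not shown. Against the mean RPKM of all tested protein-coding genes in DMSO, Jag2 lay above 83.6%, Hes1 above 43.0% and Notch2 above 7.48%.

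Jag2 made up 52.0% and 69.3% of the summed RPKM of the 5 ligands in DMSO and 63.8% and 64.0% in YKL (60.7% ± 12.2 and 63.9% ± 0.188, SD, n = 2). The groups overlapped, and no test is given because 2 libraries against 2 allow only a large exact p. Dll1 held 18.3% and 9.56% in DMSO and 9.75% and 7.52% in YKL, whereas Dll3 held 15.9% and 10.4% in DMSO and 14.2% and 16.4% in YKL. Summed ligand levels were 40.9 and 44.2 RPKM in DMSO and 47.5 and 44.5 RPKM in YKL. The 3 receptors together reached 0.199 and 0.646 RPKM in DMSO and 0.405 and 0.518 RPKM in YKL. Ligand transcripts therefore exceeded those of the 3 receptors by 205-fold and 68.4-fold in DMSO and by 117-fold and 85.9-fold in YKL. Notch4, a receptor outside the set that is best known in endothelium, had 0.534 and 0.630 RPKM in DMSO and 0.660 and 0.670 RPKM in YKL. With it added, the excess was 55.8-fold and 34.6-fold in DMSO and 44.6-fold and 37.5-fold in YKL.

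**Figure D2:**
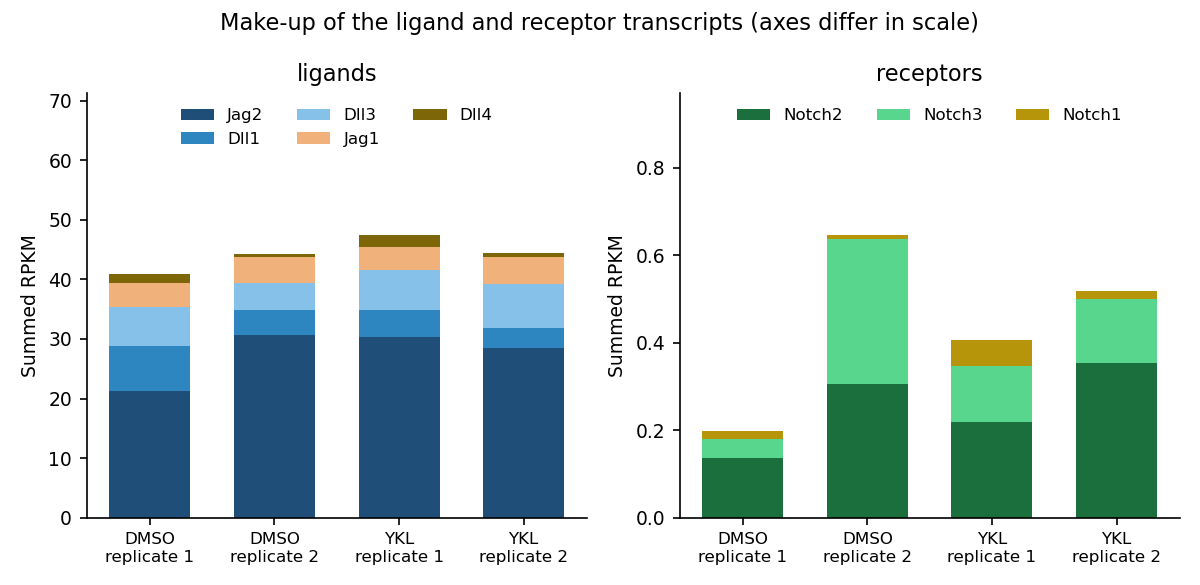
Stacked RPKM of the 5 ligands (left) and the 3 receptors (right) in each library, on axes of different scale. Jag2 is the largest part of the ligand sum in each library (52.0% to 69.3%), and the receptor sum stays at or under 0.646 RPKM.

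Among the 9 tested genes the targets Hes1 and Hey1 had the largest log2 fold changes. Hes1 (ENSMUSG00000022528, chromosome 16, 30064384 to 30067796), a repressor of proneural genes, had 327 and 369 counts in DMSO and 961 and 641 counts in YKL, or 9.77 and 11.7 CPM against 31.4 and 19.9 CPM. Both YKL libraries lay above both DMSO libraries, and the lower of them was YKL replicate 2. It rose 2.39-fold (log2 fold change 1.25 ± 0.29, adjusted p = 0.04999 by edgeR), at the edge of the threshold. Among 14 alternatives the log2 fold change ran from 0.89 without YKL replicate 1 to 1.54 without YKL replicate 2, with adjusted p from 0.000641 to 0.413, and the gene was called in 6. The summed level of the markers of other lung epithelium was higher in both YKL libraries too. The sums of the endothelial, fibroblast and immune markers overlapped between the groups. Of the 10 epithelial markers, only Hopx and Foxj1 had a group mean of at least 5 CPM. Among the 4 tested, these 2 had log2 fold changes above 0, and 2, Sftpc and Ager, had values below 0. Sftpc had 1.88 and 1.11 CPM in DMSO and 0.783 and 0.621 CPM in YKL. Within the immune list Ptprc, the leukocyte gene for CD45, was itself called higher, at 0 and 2 counts in DMSO and 25 and 23 counts in YKL (adjusted p = 0.0392 by edgeR), all under 1 CPM. Mitochondrial genes also took a larger share in both YKL libraries. Their part in the result was not tested.

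Hey1 (ENSMUSG00000040289, chromosome 3, 8663359 to 8667256), a repressor of the related HEY family, had 13.7 and 25.7 CPM in DMSO and 31.0 and 30.3 CPM in YKL. The YKL libraries were close to each other, and DMSO replicate 2 was nearer to them than to DMSO replicate 1. The log2 fold change of 0.64 ± 0.30 was not called (adjusted p = 0.265). Without DMSO replicate 2 it was 1.12 and called (adjusted p = 0.00344), and without DMSO replicate 1 it was 0.26 (adjusted p = 0.610). The authors' deposited table, a DESeq2 comparison, lists 9 of the 10 genes and gives 3 of them an adjusted p under 0.05. In the authors' deposited table Hes1 has a log2 fold change of 1.07 (adjusted p = 6.93e-06), Hey1 one of 0.61 (adjusted p = 0.0143) and Dll1 one of -0.51 (adjusted p = 0.00705). DESeq2 run here on the deposited counts called Hes1 (adjusted p = 0.0022) but neither Hey1 (adjusted p = 0.226) nor Dll1 (adjusted p = 0.320).

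**Figure D3:**
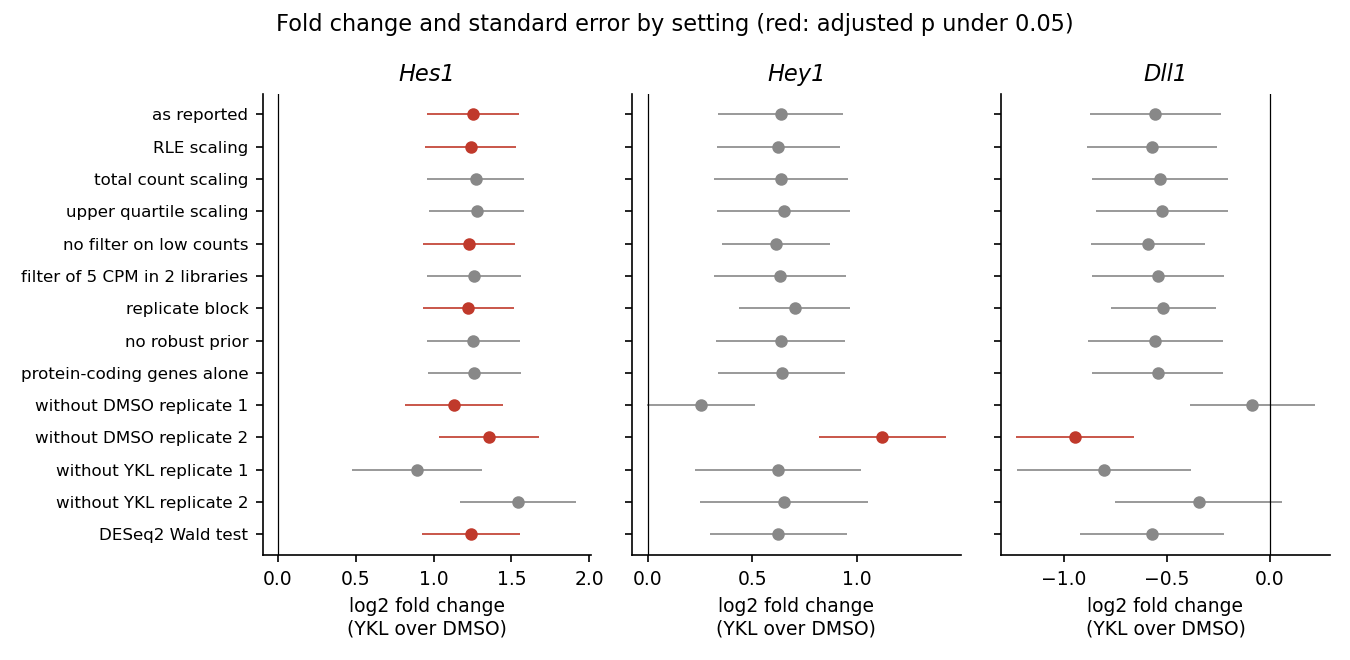
Log2 fold change (YKL over DMSO) with standard error for Hes1, Hey1 and Dll1 under each analysis setting, with called values in red. Hes1 stays between 0.89 and 1.54, whereas Hey1 and Dll1 are called only without DMSO replicate 2.

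The genes whose pattern over the 4 libraries was most like that of Hes1 were Lrrc10b, 2810006K23Rik and Itgb3, at Euclidean distances of 0.127, 0.167 and 0.197 between log2(CPM + 0.5) values centred per gene. They were the nearest of 11243 tested protein-coding genes whose mean reached 5 CPM, and with 4 libraries many genes lie close to any pattern.

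The other genes of the pathway were followed in 8 lists of 92 genes in all, of which 83 were tested, 3 were called higher and 2 lower (6.02% against 3.54% of all tested genes). The median log2 fold change of the 83 was -0.068. None of the 5 tested genes for further receptors and non-canonical ligands was called. The most abundant was Dner, which encodes a neuronal EGF-repeat protein described as a Notch ligand. It had 531 and 365 CPM in DMSO and 272 and 316 CPM in YKL (log2 fold change -0.61 ± 0.22, adjusted p = 0.151). Per length Dner stood above Jag2, at 111 and 76.2 RPKM in DMSO and 56.9 and 66.0 RPKM in YKL. Mfap2, a microfibril protein, had 24.1 and 19.8 CPM in DMSO and 15.9 and 14.9 CPM in YKL (adjusted p = 0.275).

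The machinery that handles ligands and receptors held no call in 22 tested genes, against 3.54% called over all tested genes. Of 7 genes for ligand ubiquitination and endocytosis the most abundant were Epn1, an epsin, and Dnm2, a dynamin, with log2 fold changes of 0.00054 ± 0.21 and 0.19 ± 0.18. Of 15 genes for receptor glycosylation and cleavage, Adam10, the protease of the first activating cut, had 341 and 375 CPM in DMSO and 443 and 436 CPM in YKL (log2 fold change 0.30 ± 0.18, adjusted p = 0.377). The Fringe enzymes, which add sugars that set which ligands a receptor answers to, had fold changes of opposite sign. Lfng had 89.3 and 60.9 CPM in DMSO and 144 and 102 CPM in YKL (log2 fold change 0.71 ± 0.25, adjusted p = 0.142). Mfng, named after its value was seen, had 116 and 77.5 CPM in DMSO and 49.2 and 56.6 CPM in YKL (log2 fold change -0.87 ± 0.23, adjusted p = 0.0669). For both genes the groups lay apart, in opposite directions, and neither passed the test.

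Among 10 genes for receptor turnover and inhibition, 1 fell and none rose, against 1.44% of all tested genes called lower and 2.1% higher. Dtx3, a Deltex family ubiquitin ligase, had 74.9 and 108 CPM in DMSO and 42.6 and 49.6 CPM in YKL, and fell 1.98-fold (log2 fold change -0.99 ± 0.22, adjusted p = 0.0431). That call ended without either YKL library, with total count or upper quartile scaling and without the robust prior. None of 20 genes for the nuclear complex and its co-regulators was called, with a median log2 fold change of -0.19 and 16 of 20 values below 0. Over all tested genes 3.54% were called, and 8376 of 16749 values lay below 0. In 11 of the 20 genes the groups overlapped. The most abundant were the co-repressor genes Ctbp1 and Hdac1, with log2 fold changes of -0.31 ± 0.22 and 0.017 ± 0.17. Rbpj itself, given as the DNA-binding partner of Notch and named after its value was seen, had 110 and 96.5 CPM in DMSO and 126 and 104 CPM in YKL. Tle3, a Groucho co-repressor that binds HES proteins, was also named after its value was seen. It had 352 and 310 CPM in DMSO and 198 and 196 CPM in YKL (log2 fold change -0.75 ± 0.18, adjusted p = 0.0515 by edgeR). That value lay just past the threshold, and Tle3 was called in 7 of 14 alternatives (log2 fold change -0.87 to -0.65).

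**Figure D4:**
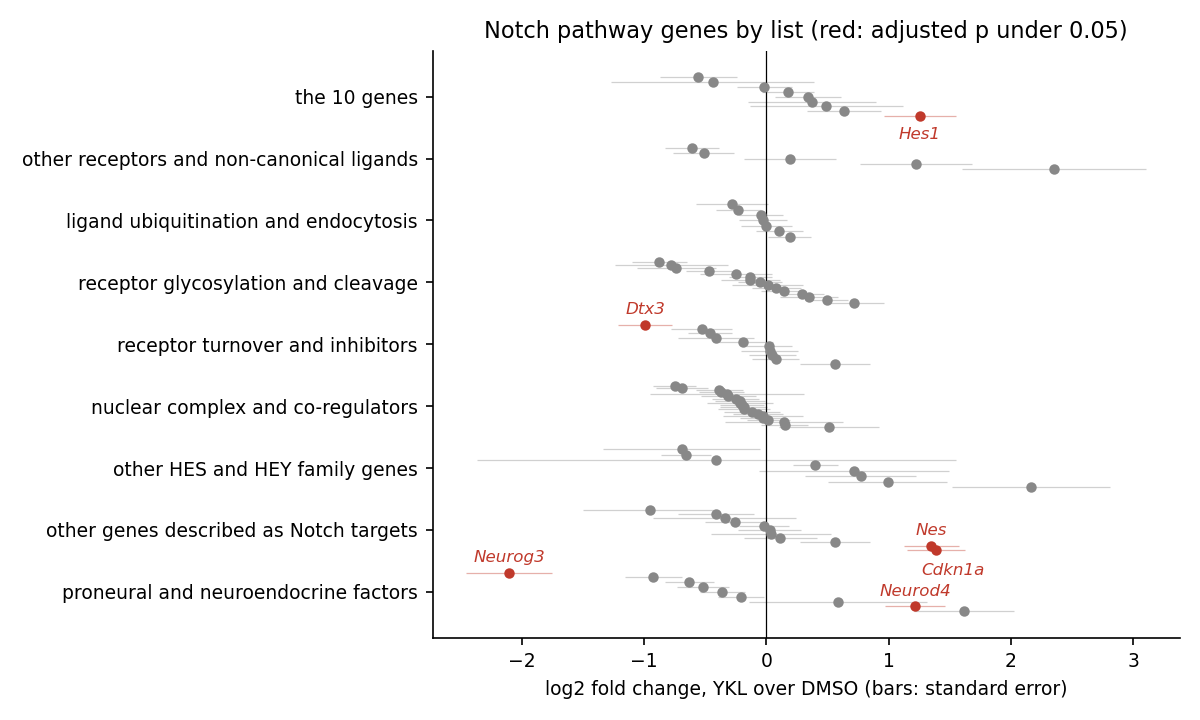
Log2 fold change (YKL over DMSO, with standard error) of each tested gene of the set and of the 8 other lists, with genes of adjusted p under 0.05 in red. The called genes are Hes1, Nes, Cdkn1a and Neurod4 above 0 and Dtx3 and Neurog3 below 0.

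Of 11 tested genes described elsewhere as Notch targets 2 rose, and none of 8 tested further HES and HEY related genes was called. The share of all tested genes called was 2.1% higher and 3.54% in either direction. Both lists were chosen with earlier results of these data known. Nes, the intermediate filament gene of neural progenitors, had 19.9 and 28.1 CPM in DMSO and 64.8 and 57.5 CPM in YKL, and rose 2.55-fold (adjusted p = 0.0197). Cdkn1a, which encodes the CDK inhibitor p21 and also answers to p53, rose 2.62-fold (adjusted p = 0.0219). Both calls ended with total count scaling and without either YKL library. Hes6, a HES member that opposes HES1, was the most abundant of its list per length, at 76.2 and 62.0 RPKM in DMSO and 93.6 and 88.8 RPKM in YKL (log2 fold change 0.40 ± 0.19, adjusted p = 0.253). Bhlhe40, a related repressor that responds to hypoxia, had 6.43 and 211 CPM in DMSO and 104 and 59.9 CPM in YKL. Its DMSO libraries thus lay on either side of both YKL libraries, as they did for Notch3.

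Among 9 tested proneural and neuroendocrine factors, 1 rose and 1 fell, against 2.1% of all tested genes called higher and 1.44% lower. Any part of Hes1 in these changes was not tested. Neurog3, a proneural factor known as a target of HES1 in the pancreas, had 24.6 and 14.8 CPM in DMSO and 4.08 and 5.09 CPM in YKL. The groups lay far apart, and Neurog3 fell 4.29-fold (log2 fold change -2.10 ± 0.35, adjusted p = 0.0197). Its exons share 273 bases with Fam241b on the other strand, a gene at a mean of 32.5 CPM in DMSO against 22.6 CPM in YKL. Neurod4, a later neuronal factor, went the other way, from 11.2 and 11.3 CPM in DMSO to 25.9 and 26.4 CPM in YKL (2.33-fold, adjusted p = 0.0322). Both calls ended without either YKL library, and that of Neurod4 also with total count scaling and without the robust prior.

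**Figure D5:**
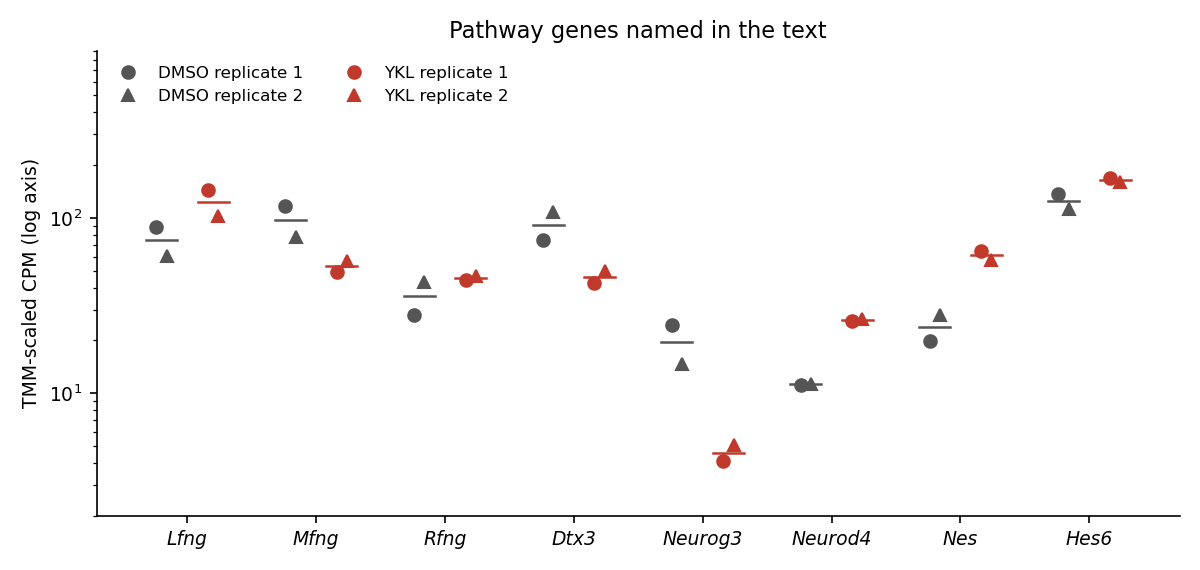
TMM-scaled CPM (log axis) of pathway genes named in the text in each library, marked as circles for replicate 1 and triangles for replicate 2, with lines at the mean of 2 libraries. Neurog3 is lower in both YKL libraries (4.08 and 5.09 against 24.6 and 14.8 CPM), whereas Neurod4 and Nes are higher in both.

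Promoter sequences were matched by symbol in RefSeq's table (GRCm38.p6) for 8 of the 10 genes. Hes1 and Hey1 had no match there. Windows of 250 bases upstream of each start were searched on both strands for 5 motifs in these 8 genes, Neurog3 and Neurod4. GTGGGAA, the RBPJ site, and CACGTG, an E-box bound by HEY proteins that reads the same on either strand, had no match in these windows and occurred in 5.42% and 6.02% of all windows. CACNAG, the N-box of HES proteins, matched upstream of Notch1, Notch2, Notch3, Dll4 and Neurod4, and in 36.7% of all windows. CACGCG, a class C site bound by HES proteins, matched upstream of Notch2, Dll1, Dll4, Jag1 and Neurog3. CAGCTG, an E-box of the type bound by proneural factors, which also reads the same on either strand, matched upstream of Dll1, Dll3, Jag1 and Neurog3. Of 32851 such windows, 7.62% held CACGCG, 13.0% held CAGCTG and 0.85% held both. Both motifs occurred upstream of Neurog3, which fell, of the more distal of 2 starts of Dll1, whose level depended on the DMSO library, and of Jag1, whose log2 fold change was -0.015. The window of Jag1 overlaps an exon of its own gene, whereas those of Neurog3 and Dll1 do not. That of Dll1 overlaps 1 exon of another gene, and that of Neurog3 overlaps 0. The windows of Dll1 and Neurog3 are shown as examples, with the matches in capitals, on the strand of the gene. They lie at chr17:15376933-15377182 (Dll1, minus strand) and chr10:62132840-62133089 (Neurog3, plus strand).
Dll1: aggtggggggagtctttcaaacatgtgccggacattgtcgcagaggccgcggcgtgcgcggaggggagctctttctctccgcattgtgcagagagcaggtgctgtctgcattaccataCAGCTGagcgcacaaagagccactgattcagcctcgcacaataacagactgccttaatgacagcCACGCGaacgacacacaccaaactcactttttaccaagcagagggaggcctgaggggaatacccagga
Neurog3: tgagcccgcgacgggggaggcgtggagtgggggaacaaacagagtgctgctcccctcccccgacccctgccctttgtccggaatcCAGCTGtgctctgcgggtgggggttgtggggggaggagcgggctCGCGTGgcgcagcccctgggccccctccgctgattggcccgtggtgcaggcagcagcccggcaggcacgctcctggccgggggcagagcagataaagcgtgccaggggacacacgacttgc
In Dll1 the CACGCG match begins 68 bases upstream of the start and the CAGCTG match 132 bases upstream. In Neurog3 CAGCTG begins 165 bases upstream, and CACGCG lies on the other strand, 121 to 116 bases upstream. In Jag1 CACGCG lies on the other strand 249 to 244 bases upstream and on the strand of the gene from 171 bases upstream, and CAGCTG begins 82 bases upstream. A match is a description of these letters, and no binding was measured here.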

How the data were processed

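Raw read counts per gene were deposited for 2 DMSO and 2 YKL libraries. The submitters' processing notes name mm10, STAR 2.5.2b, featureCounts and DESeq2. The authors' deposited comparison table gives each gene's mean normalized signal, log2 fold change with error, Wald score and raw and adjusted p-value, and was read only for the 10 genes. The other deposited columns used were exon length, symbol and biotype.

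Counts were fitted in edgeR 4.0.16 (R 4.3.3) after filterByExpr (minimum count 10, minimum total 15) and TMM scaling, with a robust quasi-likelihood fit, 2 residual degrees of freedom and Benjamini-Hochberg adjustment over 16749 genes. Standard errors are the absolute log2 fold change over the square root of F. CPM and RPKM use the TMM-scaled library sizes. TMM centres the fold changes, so a shift shared by most transcripts does not show. The procedure was tested on simulated data.

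The genes and lists were chosen with earlier results of these data known. The rule named the 10 genes, each called gene of the other lists, or the 2 most abundant where none was called, and the 3 genes nearest in pattern. Some list members are not reported here. Each library was left out in turn. Other alternatives were scaling by RLE, upper quartile or total count, 2 other filters, a block by replicate number, a fit to protein-coding genes, a non-robust prior, DESeq2 1.42.0 and a threshold of 0.01.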

Additional observations from a re-analysis of the deposited data

How the results depend on the processing

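Against 593 genes called in all, 1 of the 10 Notch genes and 5 of the other pathway genes, the counts were 169, 0 and 1 with total count scaling, 331, 0 and 4 with upper quartile scaling, 236, 0 and 3 without the robust prior, 1740, 1 and 17 with no filter, 1599, 1 and 12 by DESeq2, and 30, 0 and 0 at an adjusted p under 0.01. The filter of 5 CPM and the fit on protein-coding genes alone also called 0 of the 10. With 1 library left out the counts ran from 71 to 2453, from 0 to 3 and from 0 to 18, the lowest without either YKL library and the highest without DMSO replicate 2. With the replicate number as a block 1387 genes, Hes1 among the 10 and 12 of the other genes were called. The labels tie no culture or batch to the numbers, and deviations of same-numbered libraries correlated at 0.152. Signs turned, without a call, for Notch3 under the block (0.053), for Jag1 with upper quartile scaling (0.0058), and with 1 library left out for Notch2 (-0.094 to 1.04), Notch3 (-1.26 to 1.59), Dll4 (-0.32 to 1.47), Jag1 (-0.16 to 0.12) and Jag2 (-0.058 to 0.43). The signs of Dll1, Dll3, Hes1 and Hey1 held in all 14 alternatives. In CPM, without length, Jag2 was 75.5% of the ligand sum in YKL. The causes of these shifts were not tested. Low counts limit Notch1, Notch2 and Notch3.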

Other observations

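The HES and HEY genes were read as a family after their values were seen, so no test is given. Of the 12 genes of the HES and HEY family list, Hes1 and Hey1 included, 10 were tested. Hes1 alone was called, against 3.54% of all tested genes. A log2 fold change above 0 was found in 7 of the 10 (0.40 to 2.16), all named HES or HEY, and in 8373 of all 16749 tested genes. One below 0 was found in the related genes Helt (-0.69), Bhlhe41 (-0.66) and Bhlhe40 (-0.41). The highest value was that of Hes2, at 16 and 10 counts in DMSO and 80 and 32 counts in YKL. Hes7, also above 0, had 3 and 10 counts in DMSO and 11 and 10 counts in YKL, and its groups overlapped. Hey2 had 1.40 and 3.14 CPM in DMSO and 4.60 and 4.44 CPM in YKL, Hes5 had 1.67 and 1.46 CPM in DMSO and 2.84 and 2.51 CPM in YKL, and Hes2 had 0.478 and 0.317 CPM in DMSO and 2.61 and 0.993 CPM in YKL. Nrarp, a feedback inhibitor of Notch that the pathway induces, had 9.09 and 9.71 CPM in DMSO and 13.7 and 14.0 CPM in YKL (adjusted p = 0.299 by edgeR).

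Some of the 10 genes differed between replicate numbers in the same direction in both groups. Notch1, Dll1 and Dll4 were higher in replicate 1 in DMSO and in YKL, by 2.12-fold and 3.29-fold for Notch1, 1.77-fold and 1.38-fold for Dll1, and 2.95-fold and 2.5-fold for Dll4. Notch2, Notch3 and Jag1 were higher in replicate 2 in both, Notch2 by 2.25-fold and 1.62-fold. The other 4 genes differed in order between the groups. How many of all tested genes kept their order was not counted, so a shared order is not shown to be particular to these genes. The values of Notch1 rest on 9 and 4 counts in DMSO and 25 and 8 counts in YKL.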
